A study of Mus musculus with 3 samples.

Results

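The cells described here are those with high G2/M marker expression among mouse embryonic stem (ES) cells profiled by Smart-SCRB, a sensitive single-cell assay that counts distinct transcript molecules by unique molecular identifiers (UMIs) at the 3′ end. In every culture they are the 25% of cells with the highest summed level of 8 genes, Ccnb1, Plk1, Cdc20, Aurka, Cenpe, Cenpf, Ube2c and Tpx2, each in CPM, its UMI count scaled to a common total per cell. The choice gave 292 of 1167 cells, and the other 875 cells of the same cultures served as the comparison. The parental line was JM8.N4, of strain C57BL/6N, grown without feeders in serum, LIF and the inhibitors PD0325901 and CHIR99021. All cells carried RAD21, a subunit of the cohesin ring, fused to the auxin-induced degron (AID), so that the controls bear the tag as well. Control cells were untreated, and auxin-treated cells received 500 μM indole-3-acetic acid for 6 h, which removes RAD21 protein. Because the degron acts on protein, Rad21 mRNA is no check of the depletion.

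The labels give 3 replicates, each with control and auxin-treated plates, so that there were 6 cultures, and the condition of a well was taken from the deposited well annotation. Replicate 1 contributed 42 high-G2/M cells from control and 42 from auxin, replicate 2 contributed 93 and 73, and replicate 3 contributed 21 and 21. The deposited tables held 1536 wells, of which the wells with more than 2600 detected genes were used, without 2 plates of replicate 3 (168 cells) whose condition is in doubt, since the well annotation and the study's source values give them opposite conditions. Summed over the cells of a culture, the high-G2/M cells gave between 1620743 and 12888073 UMIs and the other cells between 4427386 and 37372577. As a check of the labelled cell type, 13 general pluripotency genes together reached 4004 to 10267 CPM in the sums of high-G2/M cells and 3860 to 9965 CPM in those of other cells, although Pou5f1, which encodes OCT4, lay between 250 and 329 CPM in replicate 1 and only between 5.02 and 12.1 CPM in replicates 2 and 3. Replicate 2 stood apart from the others. Over bins of cells, naive pluripotency factors together lay at 288 to 787 CPM there and at 2137 to 2890 CPM in replicates 1 and 3, formative and primed genes at 1266 to 2198 CPM against 97.1 to 302 CPM, and Nanog at 13.5 to 70.8 CPM against 430 to 629 CPM. Results without replicate 2 are given beside the counts of genes, and the part of this difference in them was not tested.

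The G2/M program prepares and executes cell division. Cyclin B and CDK1 drive entry into mitosis, Aurora and Polo kinases build the spindle, and the anaphase-promoting complex (APC/C) with its activator CDC20 and the ubiquitin-conjugating enzyme UBE2C ends it by destroying cyclin B and securin. Many of these genes are transcribed late in the cycle through promoters with CCAAT boxes, bound by NF-Y, and a cell-cycle genes homology region (CHR), bound by the DREAM complex and by B-MYB with FOXM1. ES cells have a short G1 phase, so that a large part of a growing culture is in S or G2/M.

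To show promoters with and without these elements, stretches are given for genes that the comparison turns on. They were picked to show the elements, and their shares over all genes are given further on. Each stretch runs over the 150 bases before the RefSeq start site (GRCm38.p6), 5′ to 3′ on the gene's strand. Capitals mark CHR elements (TTTGAA or TTCGAA, or the reverse complement TTCAAA) and CCAAT boxes (CCAAT or its reverse complement ATTGG). Cdk1 encodes the mitotic kinase, Ccnf cyclin F, Top2a the topoisomerase that untangles sister chromatids, Mki67 the Ki-67 protein that coats mitotic chromosomes, Fam83d a spindle protein and Bub3 a checkpoint protein. Ube2c belongs to the 8 marker genes. Bub3 has a second RefSeq start whose stretch holds neither element. Nusap1 and Arl6ip1, higher in both conditions, hold no CHR in this stretch, nor do Hmmr and Cenpa, and Nusap1 holds no CCAAT box either. The stretches end at the start site. With 50 bases after it included, 3 of the 5 genes higher in both conditions with a promoter at hand held a CHR. A stretch without a CHR therefore does not mean that the promoter has none. Ccne1, which encodes the G1/S cyclin E1 and was lower in the chosen cells, is given for contrast and holds neither element in this stretch.
Cdk1, chr10:69352913-69353062, minus strand: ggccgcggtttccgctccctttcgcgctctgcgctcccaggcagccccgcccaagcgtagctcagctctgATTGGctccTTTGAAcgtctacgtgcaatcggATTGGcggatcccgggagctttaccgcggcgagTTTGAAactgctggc
Ccnf, chr17:24251410-24251559, minus strand: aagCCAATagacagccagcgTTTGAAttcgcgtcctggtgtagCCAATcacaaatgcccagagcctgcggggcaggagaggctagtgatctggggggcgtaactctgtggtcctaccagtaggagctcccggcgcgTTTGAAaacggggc
Top2a, chr11:99024190-99024339, minus strand: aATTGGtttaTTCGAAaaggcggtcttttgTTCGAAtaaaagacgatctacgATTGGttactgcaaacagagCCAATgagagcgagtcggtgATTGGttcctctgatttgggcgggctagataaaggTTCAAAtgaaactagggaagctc
Mki67, chr7:135716380-135716529, minus strand: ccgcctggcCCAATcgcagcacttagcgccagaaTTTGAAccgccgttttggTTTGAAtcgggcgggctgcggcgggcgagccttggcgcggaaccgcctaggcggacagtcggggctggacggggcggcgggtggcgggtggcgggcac
Fam83d, chr2:158767949-158768098, plus strand: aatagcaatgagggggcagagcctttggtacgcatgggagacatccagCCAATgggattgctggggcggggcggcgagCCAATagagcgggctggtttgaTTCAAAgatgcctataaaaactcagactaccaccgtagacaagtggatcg
Bub3, chr7:131560220-131560369, plus strand: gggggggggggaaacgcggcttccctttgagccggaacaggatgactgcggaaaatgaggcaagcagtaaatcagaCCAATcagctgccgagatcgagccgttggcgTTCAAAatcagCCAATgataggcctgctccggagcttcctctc
Ube2c, chr2:164769779-164769928, plus strand: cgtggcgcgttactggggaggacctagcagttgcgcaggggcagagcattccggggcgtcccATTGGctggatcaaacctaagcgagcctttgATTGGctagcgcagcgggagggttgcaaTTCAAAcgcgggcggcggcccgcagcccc
Nusap1, chr2:119618148-119618297, plus strand: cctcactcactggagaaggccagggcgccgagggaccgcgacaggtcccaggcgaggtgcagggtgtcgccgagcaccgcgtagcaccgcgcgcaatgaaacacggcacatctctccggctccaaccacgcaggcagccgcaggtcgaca
Arl6ip1, chr7:118129626-118129775, minus strand: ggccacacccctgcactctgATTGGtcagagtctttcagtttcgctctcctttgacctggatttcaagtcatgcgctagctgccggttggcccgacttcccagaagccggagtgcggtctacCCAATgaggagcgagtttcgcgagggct
Ccne1, chr7:38107491-38107640, minus strand: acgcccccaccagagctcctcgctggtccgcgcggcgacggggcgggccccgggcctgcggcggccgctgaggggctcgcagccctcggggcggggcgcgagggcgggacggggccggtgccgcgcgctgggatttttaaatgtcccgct

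The marker sum chose the cells, so its values are a description and carry no test. The median sum of high-G2/M cells was similar everywhere, at 4841 and 5072 CPM in control and auxin of replicate 1, 5697 and 5711 CPM in replicate 2, and 4853 and 5400 CPM in replicate 3. The other cells differed far more between cultures, with medians of 1011 and 1626 CPM in replicate 1, 3449 and 2754 CPM in replicate 2, and 1893 and 2451 CPM in replicate 3. The chosen cells of control replicate 2 thus stood out least from their neighbours and those of control replicate 1 most. The cut itself fell in a continuous range. The last cell inside and the first cell outside had sums of 3157 and 3082 CPM in control replicate 1, 4865 and 4864 CPM in control replicate 2, and 3696 and 3694 CPM in control replicate 3. In the auxin cultures the corresponding sums were 3819 and 3747 CPM, 4947 and 4908 CPM, and 4378 and 4370 CPM.

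**Figure D1:**
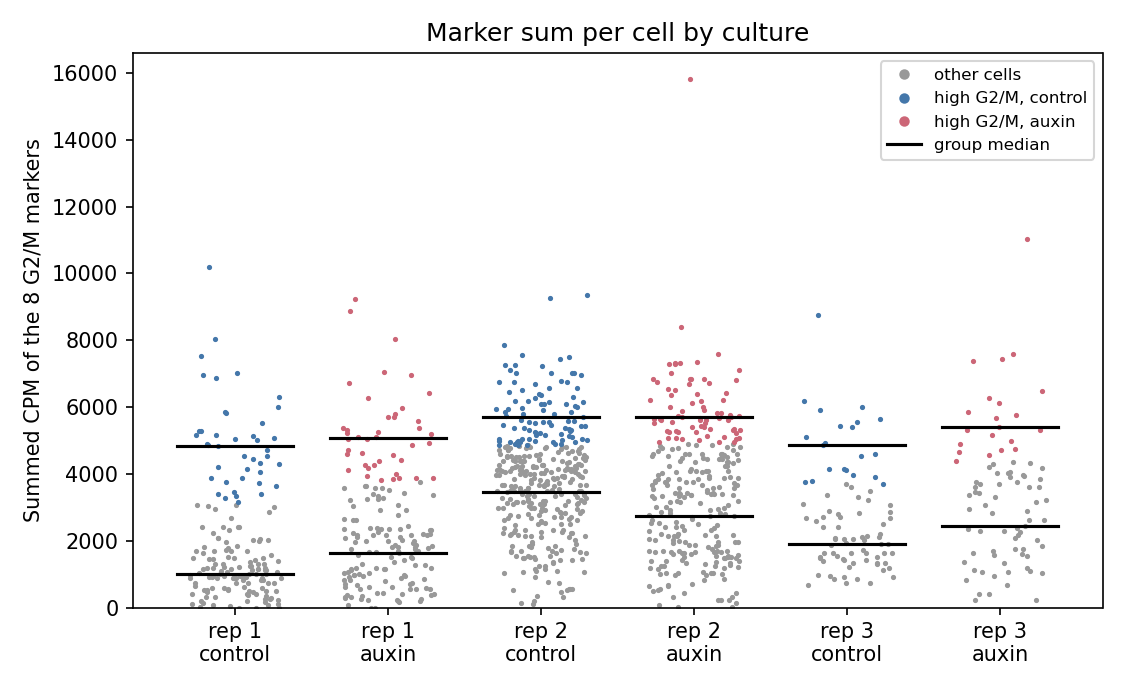
Summed CPM of the 8 G2/M markers in each cell (y axis) by culture (x axis), with other cells in grey, high-G2/M cells in blue (control) or red (auxin) and a black line at each group's median. The medians of other cells range from 1011 CPM in control replicate 1 to 3449 CPM in control replicate 2, while those of high-G2/M cells stay between 4841 and 5711 CPM.

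All 8 markers contributed. Ccnb1, which encodes cyclin B1, was between 1.50-fold and 4.34-fold higher in the summed counts of the chosen cells over the 6 cultures. The ratio lay between 1.65 and 3.17 for Cdc20, 1.46 and 3.94 for the Polo kinase gene Plk1, and 1.43 and 3.90 for the Aurora A gene Aurka. For its activator Tpx2 it lay between 1.39 and 2.73. Cenpe and Cenpf, which encode kinetochore proteins, ranged from 1.69 to 3.26 and from 1.87 to 5.01, and Ube2c from 1.62 to 5.11. All 8 ratios were above 1 in each culture, which the choice by their sum makes likely and which is not a result.

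Whether the 8 genes vary together was measured by choosing cells with some of them and reading the rest. The cells so chosen need not be the high-G2/M cells described elsewhere. All 8 are G2/M markers of the rule, so the result describes these markers and is no separate support for the choice. When cells were chosen by Ccnb1, Plk1, Cdc20 and Aurka alone, the summed level of Cenpe, Cenpf, Ube2c and Tpx2 was higher by 1.13 ± 0.58 on the log2 scale (mean ± SD over cultures, n = 6), or 2.19-fold, and higher in 6 of 6 cultures (p = 0.03125 in an exact permutation test that flips signs over cultures, two-sided, which is the lowest value 6 cultures can reach). The control and the auxin culture of 1 replicate may not be independent, and counted by replicate there are 3 units, for which 0.25 is the lowest exact permutation p, so neither this test nor the later ones over 6 cultures could then pass. The reverse choice gave 1.02 ± 0.55, or 2.02-fold, also in 6 of 6 cultures (exact permutation p = 0.03125). Across cultures the fold ran from 1.36 in control replicate 2 to 4.32 in control replicate 1 for the first choice and from 1.36 to 3.38 for the second, in the same 2 cultures. The separation was smallest in the culture whose other cells had the highest marker sum.

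The phase of each cell was assigned by cyclone, which compares the order of gene pairs with trained references, after all pairs holding 1 of the 8 genes had been removed (27270 of 28492 pairs left). Of the 292 high-G2/M cells, 256 were placed in G2/M, 33 in S and 3 in G1. In control, 95.2%, 83.9% and 95.2% of the high-G2/M cells of replicates 1, 2 and 3 were placed in G2/M, against 17.5%, 46.4% and 25% of the other cells. After auxin, the shares were 97.6%, 78.1% and 95.2% against 32.3%, 21.2% and 46.0%. The groups did not overlap. The difference averaged 59.5 ± 14.7 percentage points (SD, n = 6 cultures; exact sign-flip permutation p = 0.03125) and was smallest in control replicate 2, at 37.5 points.

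**Figure D2:**
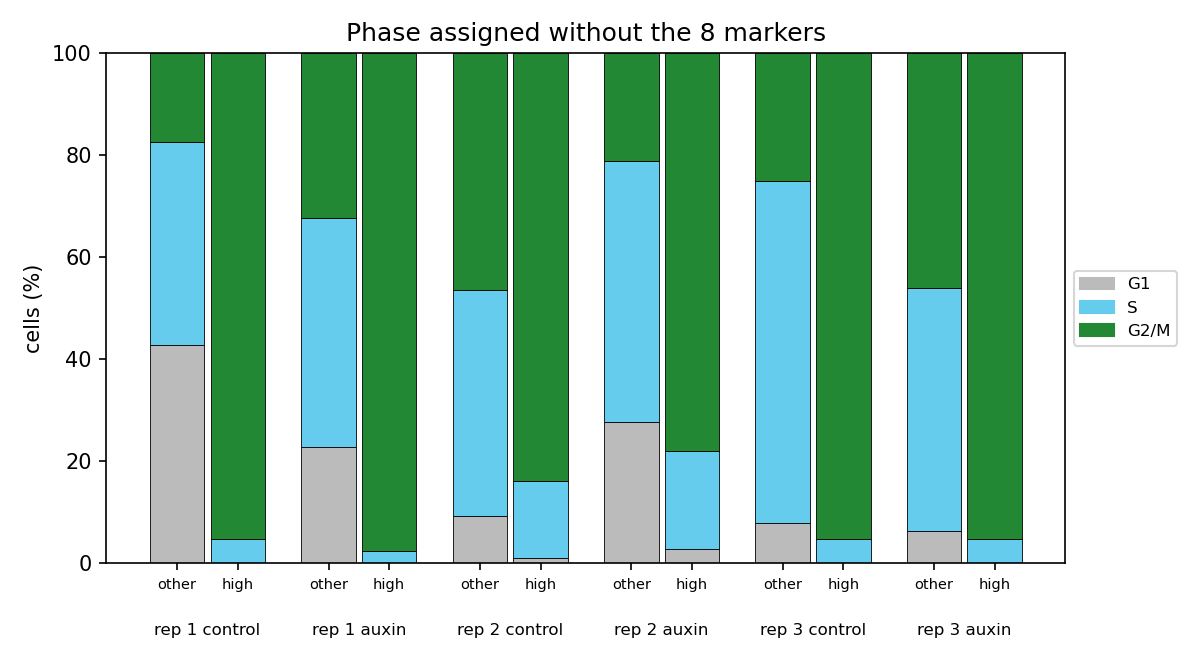
Percent of cells placed in G1, S and G2/M (stacked bars, y axis) among other cells and high-G2/M cells of each culture (x axis), by cyclone without the 8 markers. G2/M takes 78.1% to 97.6% of high-G2/M cells and 17.5% to 46.4% of other cells.

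Both other phases took a smaller share of the chosen cells. The shares of the phases add up to a fixed total, so these differences and their tests are not separate from those of G2/M. S phase was assigned to 2.38% to 19.2% of high-G2/M cells and to 39.7% to 67.2% of other cells, a difference of −40.6 ± 12.02 points (n = 6, exact permutation p = 0.03125). G1 was assigned to 0% to 2.74% of high-G2/M cells and to 6.35% to 42.9% of other cells, and differed by −18.8 ± 14.3 points (n = 6, exact permutation p = 0.03125). The G1 share of other cells varied widely, being 42.9% in control replicate 1 and 7.81% in control replicate 3. The difference in G2/M share did not move in 1 direction with auxin (auxin minus control −4.69 ± 21.3 points, n = 3, higher in 1 of 3 replicates, exact permutation p = 0.75, with 0.25 the smallest that 3 replicates allow).

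The UMI total scales the marker sum that chose the cells, so comparisons that use it are not independent of the choice. High-G2/M cells had slightly higher median UMI counts in replicates 1 and 3. Their median UMI count per cell was 1.12-fold that of other cells on average and higher in 6 of 6 cultures (log2 ratio 0.16 ± 0.13, exact sign-flip permutation p = 0.03125, or at best 0.25 when counted by replicate). In replicate 1 the medians were 121190 against 95714 UMIs in control and 123742 against 108629 after auxin, and in replicate 3 they were 79295 against 67172 and 82031 against 72332. In replicate 2 they almost coincided, at 144176 against 143626 UMIs in control and 187926 against 186666 after auxin. Measured against the ERCC spike-in molecules added to each well, UMIs per ERCC count were 1.16-fold higher on average and higher in 5 of 6 cultures (exact permutation p = 0.0625). The number of detected genes was 1.05-fold higher and higher in 5 of 6 (exact permutation p = 0.0625). Neither passed the threshold. The UMI ratio was not past it either among cells with more than 4000 detected genes (log2 ratio 0.15) or when the top 10% of cells were chosen (0.0019). The share of a plate's cells that were chosen ran from 19.4% to 33.8% over 14 plates, and replicate 3 had 1 plate per condition.

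To find which other genes distinguished the chosen cells, counts were summed over high-G2/M cells and over other cells of each culture and compared within cultures, for the 17256 genes outside the 8 that passed the filter on low counts. In control, 26 genes passed the threshold, an adjusted p under 0.05 in edgeR's quasi-likelihood test (0.151% of those tested), of which 23 were higher (0.133%) and 3 lower (0.0174%). After auxin 12 genes passed, all higher (0.0695%). With both conditions averaged in the same fit, a comparison chosen after seeing the data, 92 genes passed (0.533%), 82 higher (0.475%) and 10 lower (0.058%). The average treats the control and auxin cultures of a replicate as independent, which they may not be. These counts rest on few cultures. Without replicate 2, 92 genes passed in control and 54 after auxin, and without replicate 1 only 6 and 3, while the average gave 137 without replicate 2 and 35 without replicate 1. All 26 and all 12 kept their direction in every alternative fitted, but 0 of either passed with limma on mean CPM per cell or in edgeR without the culture as a block, where the average gave 39 and 0.

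Among genes past the threshold in both conditions, 9 were higher in the chosen cells and 0 lower. The 9 were higher in 6 of 6 cultures, as were 2.15% of all genes tested. Cdk1 (ENSMUSG00000019942, mm10 chr10:69335146-69352938), the kinase partner of cyclin B, lay at 562, 436 and 435 CPM in the high-G2/M cells of control replicates 1, 2 and 3 against 213, 325 and 259 CPM in other cells, and at 575, 456 and 557 against 275, 201 and 333 CPM after auxin. The 2 groups did not overlap in either condition, which here and for the genes below is a description, given without its share over all genes. The log2 fold change was 0.86 ± 0.15 (SE) in control (edgeR adjusted p = 0.045) and 1.00 ± 0.14 after auxin (adjusted p = 0.03).

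Nusap1 (chr2:119618298-119651244), which bundles spindle microtubules, showed the largest fold change of the 9. It reached 236, 415 and 328 CPM against 47.7, 235 and 127 CPM in control, and 230, 416 and 340 against 58.0, 176 and 174 CPM after auxin. Within each replicate the chosen cells were higher, while the other cells of control replicate 2 came close to the chosen cells of control replicate 1. The log2 fold changes were 1.48 ± 0.23 (edgeR adjusted p = 0.031) and 1.40 ± 0.23 (adjusted p = 0.0419). The 3′ counting could mix in reads of Oip5, which overlaps Nusap1 on the opposite strand, if strand was not used. Prc1, Fzr1, Cdca8, Cdc25b, Bub3, Tacc3, Ccna2 and Ccnd1, named further on, also overlap protein-coding genes on the opposite strand.

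Arl6ip1 (chr7:118118891-118129662), which encodes a protein that shapes the endoplasmic reticulum, was in no list of mitotic genes. Together with H2afx in control, and alone after auxin and in the average, it had the smallest adjusted p. It rose from 1030, 1027 and 1067 CPM in other cells of control to 2584, 1646 and 2313 CPM, and from 1257, 817 and 1576 to 2592, 1817 and 2710 CPM after auxin. All 6 chosen sums were above all 6 others. The log2 fold change was 1.04 ± 0.10 in control (edgeR adjusted p = 0.00103) and 0.99 ± 0.10 after auxin (adjusted p = 0.00255). H2afx (chr9:44334694-44336077), which encodes the histone variant H2A.X, followed with 1.14 ± 0.11 and 0.88 ± 0.11 (adjusted p = 0.00103 and 0.0196). It was higher in 6 of 6 cultures.

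Others of the 9 act at centromeres, spindle and in calcium signalling. Aurkb (chr11:69045647-69051664), the Aurora B kinase of the chromosomal passenger complex, lay at 184, 221 and 170 CPM against 67.1, 148 and 91.0 CPM in control and at 222, 219 and 185 against 113, 104 and 114 CPM after auxin, with no overlap (log2 fold change 0.97 and 0.92). Cenpa (chr5:30666777-30674830), the centromeric histone H3 variant, changed by 0.77 and 0.85. Hmmr, a spindle-binding hyaluronan receptor, changed by 0.96 and 0.89. Calm2, 1 of the genes for calmodulin, changed least of the 9, by 0.41 in both conditions, with SEs of 0.06. The adjusted p of these 4 genes lay between 0.0155 and 0.0472 in both conditions.

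A further 14 genes were higher past the threshold in control and missed it after auxin, and for none of them did the difference between conditions pass over all genes. Top2a (chr11:98992943-99024189) reached 1082, 1379 and 1052 CPM against 361, 1006 and 649 CPM in control, and 943, 1345 and 1217 against 561, 695 and 879 CPM after auxin. Its chosen cells were above the other cells throughout (log2 fold change 0.91 ± 0.16, edgeR adjusted p = 0.045, and 0.73 ± 0.16, adjusted p = 0.18). The log2 fold changes in control and after auxin were 0.96 and 0.72 for Mki67. They were, for Smc4, a condensin subunit, 0.56 and 0.40, and for Fzr1, the APC/C activator CDH1, 1.03 and 0.85. The centromeric chaperone gene Hjurp had 0.95 and 0.52, Bub3 0.80 and 0.64, and the centrosomal kinase gene Nek2 0.92 and 0.63. Prc1, Ckap2l, Tacc3, Aspm and Fam83d, all spindle proteins, changed by between 0.66 and 1.45 in control. The long non-coding RNAs Lockd and Malat1 changed by 1.42 and 0.30 in control.

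Past the threshold after auxin alone were Dlgap5, another spindle gene (log2 fold change 1.01, against 0.69 in control), the tubulin gene Tuba1c (1.11 and 0.81), whose near-identical paralogs make its counts uncertain, and Cdc25b. Cdc25b (chr2:131186949-131198497) encodes the phosphatase that activates CDK1. After auxin it lay at 34.3, 38.5 and 48.9 CPM against 9.26, 14.7 and 12.7 CPM, and in control at 21.3, 24.3 and 12.8 against 10.3, 18.6 and 8.61 CPM. The chosen cells were higher in all 6 cultures and the gap was wider after auxin in each replicate (log2 fold change 1.72 ± 0.26, edgeR adjusted p = 0.0347, against 0.66 ± 0.27, adjusted p = 0.969). The difference between conditions, 1.06, did not pass over all genes.

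**Figure D3:**
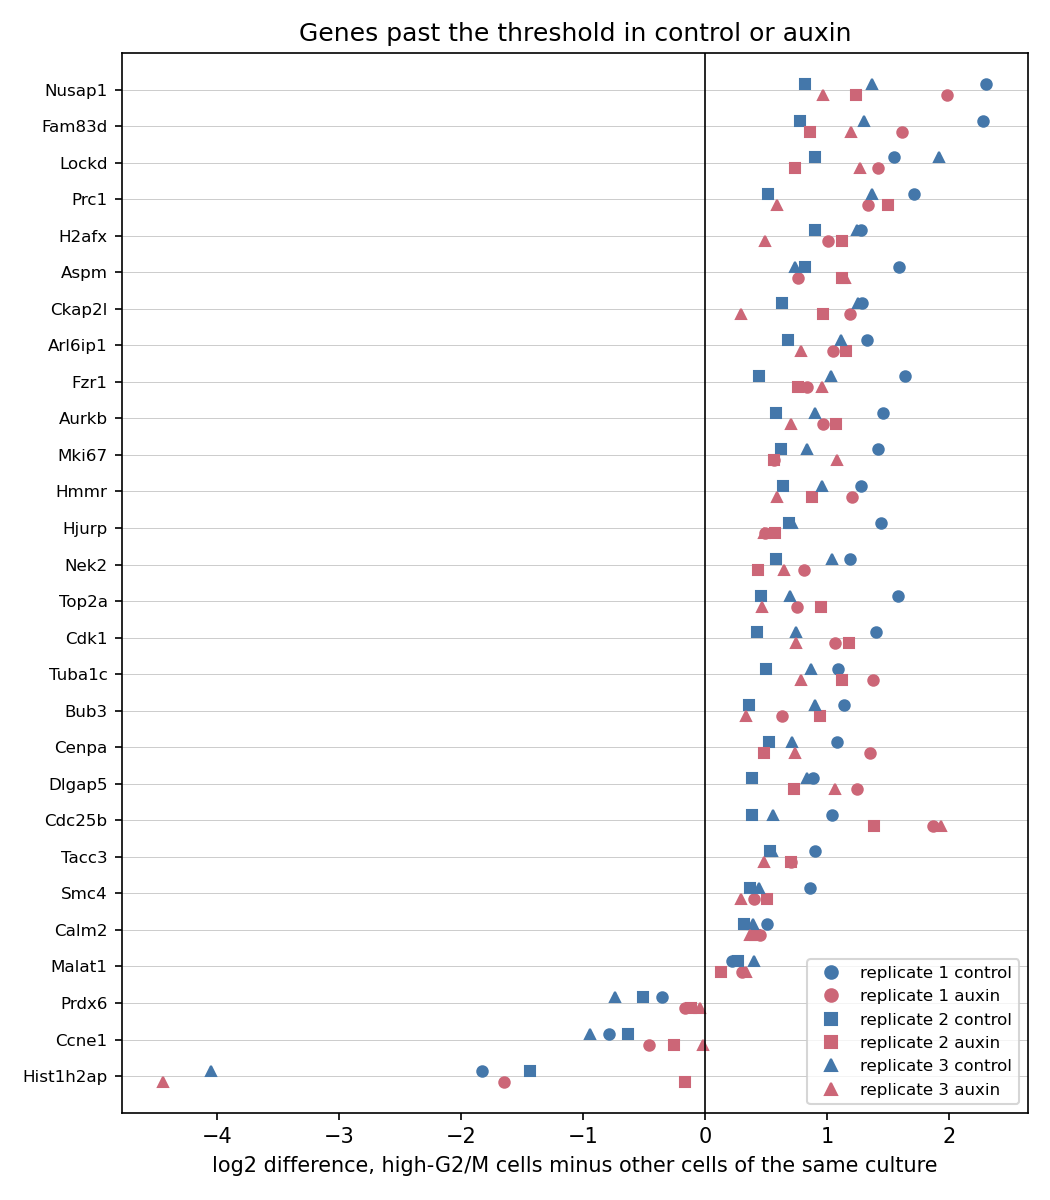
Log2 difference between high-G2/M cells and other cells of the same culture (x axis) for 28 of the 29 genes past the threshold in control or after auxin (y axis), blue for control, red for auxin, with a symbol per replicate. The 25 higher genes plotted lie to the right of 0 in all 6 cultures, and Prdx6, Ccne1 and Hist1h2ap lie to the left, close to 0 in some auxin cultures.

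The genes were grouped by role, and each group is set beside all genes tested, of which 2.15% were higher in 6 of 6 cultures, 3.56% were lower in 6 of 6, and the median log2 fold change was −0.05 in control and −0.06 after auxin. Of 15 tested cyclin and CDK1 regulators, 9 were higher in all 6 cultures and 0 lower, with medians of 0.56 and 0.37. Past the threshold in the average were 7, namely Cdk1, Cdc25b, Ccnf, Ccna2, Cks2, Bora and Ccnb2. Ccna2, cyclin A2, changed by 0.61 ± 0.09 (edgeR adjusted p = 0.00712), Ccnf by 0.90 ± 0.11, and Ccnb2, cyclin B2, by only 0.43 ± 0.08 (adjusted p = 0.0387). In replicate 3 after auxin, Ccnb2 was 167 CPM in the chosen and 162 CPM in other cells.

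Spindle motors and microtubule proteins formed the group with most genes past the threshold. Of 27, 18 were higher in 6 of 6 cultures and 0 lower, the medians were 0.75 and 0.53, and 16 passed in the average. They include the kinesin genes Kif4, Kif23 and Kif11, which changed by 0.84, 0.84 and 0.78, and Nusap1, Prc1 and Hmmr. Of 24 spindle checkpoint and kinetochore genes, 14 were higher in all cultures, the medians were 0.47 and 0.42, and 7 passed in the average, among them Cenpa, Hjurp, Bub3, Sgo2a (0.63), Spc25 (0.60) and Ska2 (0.59). The checkpoint kinase gene Bub1 was higher in 6 of 6 cultures by 0.46 ± 0.10 and did not pass (edgeR adjusted p = 0.0849). Ndc80, a kinetochore protein gene, had 0.98 in control and −0.13 after auxin, past no threshold.

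All 4 genes of the chromosomal passenger complex passed in the average and were higher in 6 of 6 cultures, Aurkb by 0.95, Incenp by 0.73, Cdca8 by 0.48 and Birc5 (survivin) by 0.46. Of 11 genes for condensins and other mitotic chromosome proteins, 6 were higher in all cultures and 5 passed, Mki67, Top2a, Ncaph, Smc4 and Hmgb2, with changes from 0.84 down to 0.23. Of 13 tubulin genes, 6 were higher in all cultures and 3 passed, Tuba1c, Tubb4b (0.55) and Tubb5 (0.26). Of 19 genes for the APC/C and its partners, 4 were higher in all cultures, only Fzr1 passed, and the medians were 0.07 and 0.13. Of 13 centrosome genes only Nek2 passed, and of 13 nuclear envelope genes 0 did, with medians of −0.01 and 0.06. The 14 transcription regulators of the G2/M program, among them Foxm1 and Mybl2, also had 0 past the threshold, and medians of −0.17 and −0.01. In each of these last 3 lists 1 gene was higher in all 6 cultures.

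Genes of DNA replication and of G1/S showed the opposite tendency. Of 44 replication genes, 0 were higher and 15 lower in 6 of 6 cultures, with medians of −0.24 in control and −0.20 after auxin, and 3 passed in the average. Mcm4 (chr16:15623897-15637400), a subunit of the replicative helicase, lay at 163, 107 and 130 CPM against 214, 131 and 184 CPM in control, and at 155, 126 and 125 against 216, 144 and 179 CPM after auxin, lower in each pair (−0.39 ± 0.08, edgeR adjusted p = 0.041). Mcm6 changed by −0.33 and Chaf1b, a subunit of the chromatin assembly factor, by −0.45. The clamp gene Pcna (−0.37), Mcm2 (−0.16) and the licensing gene Cdc6 (−0.70) were lower in 6 of 6 cultures as well without passing. Of 13 G1/S cyclin and E2F genes, 4 were lower in all cultures and Ccne1 passed.

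Ccne1 (chr7:38097984-38107534) was 107, 126 and 92.6 CPM in the chosen cells of control against 185, 195 and 178 CPM, and 105, 187 and 146 against 144, 223 and 148 CPM after auxin. The control groups did not overlap, whereas those of auxin did. The log2 fold change was −0.78 ± 0.12 in control (edgeR adjusted p = 0.031) and −0.25 ± 0.12 after auxin. Ccnd1, cyclin D1, had a log2 fold change of −0.10 in both conditions and did not pass. Of 37 tested histone genes, 4 were lower and 0 higher in all cultures, with medians of −0.37 and −0.22. The list's median log2 difference was −1.28 in control and −0.80 after auxin in replicate 1, but 0 and 0.14 in replicate 2 and −0.15 and 0.07 in replicate 3, so that the lower level rests on replicate 1. Hist1h2ap passed in control (−1.81 ± 0.28, edgeR adjusted p = 0.031), with 213 against 757 CPM in control and 184 against 575 CPM after auxin in replicate 1. In replicates 2 and 3 it was at most 3.27 CPM in any sum, so that its level rests on replicate 1, and near-identical histone copies make its counts uncertain. Prdx6, a peroxiredoxin gene in none of the lists, lay at 1110, 1358 and 726 CPM against 1420, 1936 and 1214 CPM in control (log2 fold change −0.53, edgeR adjusted p = 0.0155) and had −0.11 after auxin.

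**Figure D4:**
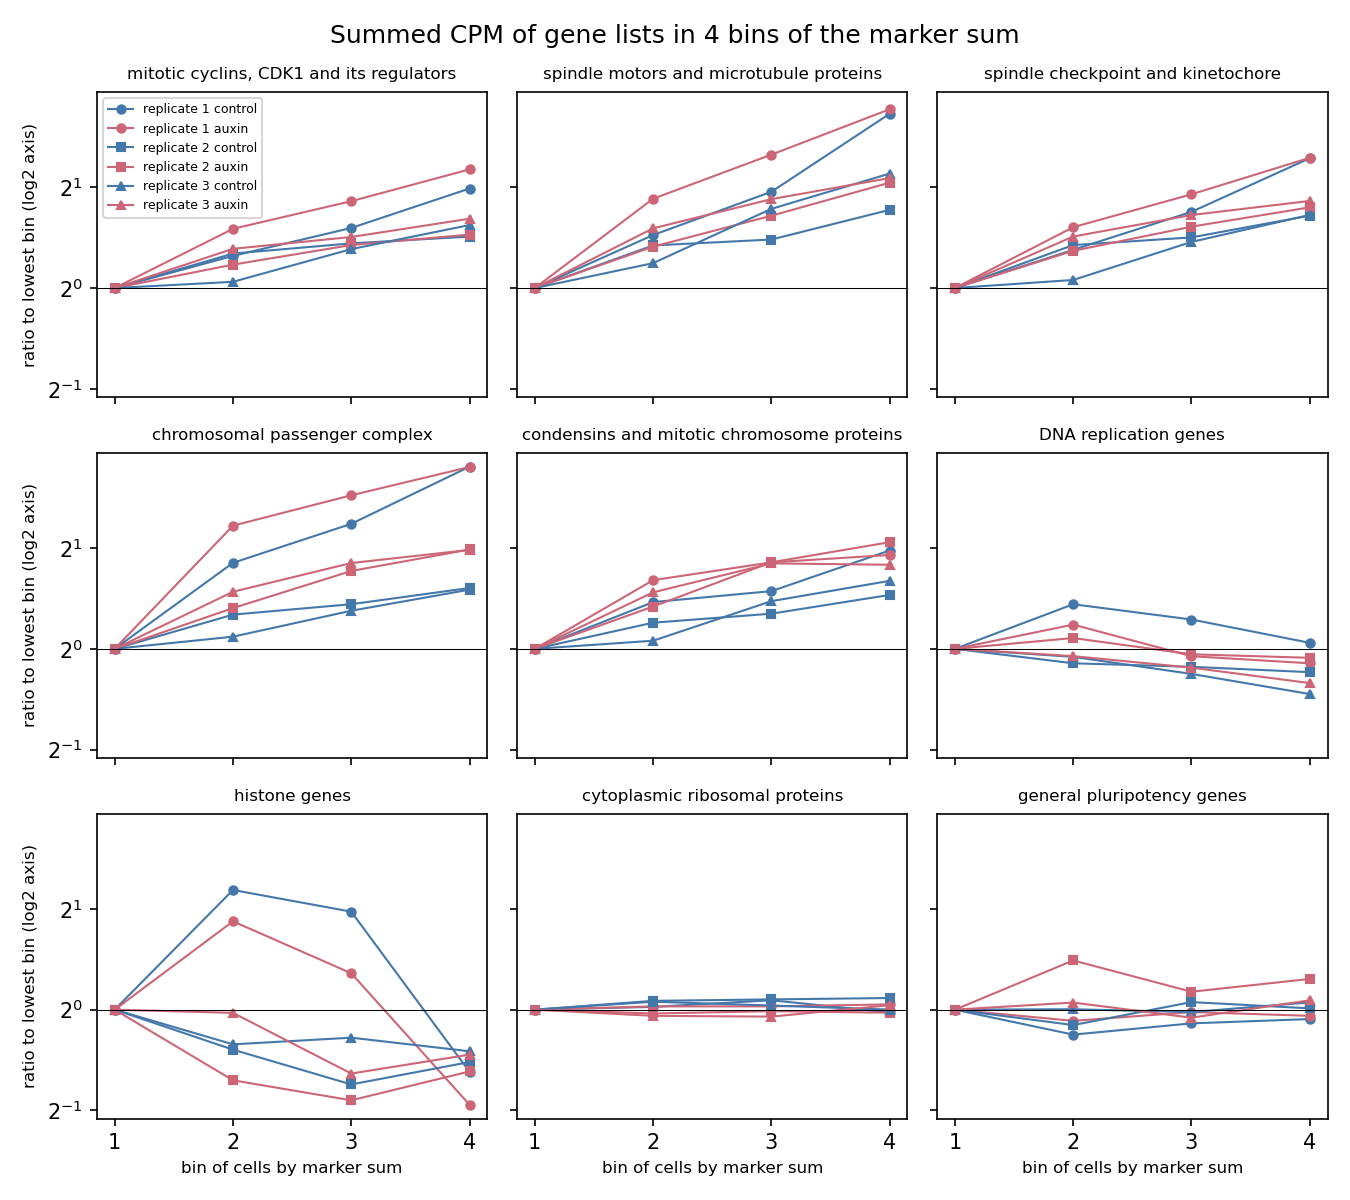
Summed CPM of 9 gene lists in 4 bins of cells ordered by marker sum (x axis), as a ratio to the lowest bin on a log2 axis (y axis), with 1 line per culture. The 5 mitotic lists are higher in bin 4, which holds the high-G2/M cells, than in bin 1 of every culture, with condensin genes of auxin replicate 3 slightly higher in bin 3 than in bin 4, replication genes end near or below their starting level, and ribosomal protein genes stay level.

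Levels also differed among the other cells. Cells of each culture were ordered by the marker sum and split into 4 bins of near-equal size, and the counts of a list were pooled over the cells of a bin and scaled to CPM, as a description without a test. The lists of cyclin and CDK1 regulators, spindle motors, kinetochore genes and the chromosomal passenger complex were each higher from bin to bin in 6 of 6 cultures. Condensin and mitotic chromosome genes were so in 5 of 6, with 3239 CPM in bin 3 and 3209 CPM in bin 4 of auxin replicate 3. Spindle motor and microtubule genes together went from 897 over 1292 and 1741 to 2979 CPM in control replicate 1, and from 2409 over 3230 and 3364 to 4127 CPM in control replicate 2. The chromosomal passenger genes went from 457 to 1602 CPM between the outer bins of control replicate 1 and from 1030 to 1566 CPM in control replicate 2. Replication genes were highest in bin 2 in control replicate 1, with 6254, 8502, 7654 and 6520 CPM, and lower from bin to bin in control replicate 3, from 10752 over 10175 and 9048 to 7877 CPM. Histone genes of control replicate 1 went from 481 over 1098 and 945 to 314 CPM. The high-G2/M cells held the lowest histone level of the 4 bins in both cultures of replicate 1 and in control replicate 3, but not in replicate 2 or in auxin replicate 3.

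Lists other than the mitotic, replication, G1/S and histone groups were compared in the same fit. None of 81 cytoplasmic ribosomal protein genes, 14 glycolysis genes, 9 mitochondrially encoded genes, 13 heat shock genes, 10 immediate early genes or 18 genes of CDK inhibitors and p53 targets passed in control, after auxin or in the average. Their medians lay between −0.16 and 0.07 in control and between −0.05 and 0.07 after auxin. In the bins of the marker sum, the genes of CDK inhibitors and p53 targets together had a lower level in the highest than in the lowest bin in 6 of 6 cultures, from 1121 against 1187 CPM in control replicate 3 to 1626 against 3178 CPM in auxin replicate 2. In both cultures of replicate 3 and in 2 others the highest bin lay above the bin next to it. The 15 genes for cohesin, its loaders and its release factors had 0 past the threshold and medians of −0.10 and −0.04. Rad21 itself was higher in the chosen cells in 3 of 6 cultures (−0.06 ± 0.19). Of 15 naive pluripotency factors, 13 general pluripotency genes and 10 formative and primed genes, 0 passed in any of the 3 comparisons. Nanog was higher in 6 of 6 cultures by 0.35 ± 0.07 and did not pass (edgeR adjusted p = 0.0629). Pou5f1 (−0.15), Klf4 (−0.31) and the Wnt antagonist gene Dkk1 (−0.94) had fold changes with adjusted p between 0.688 and 0.937 and were each higher in 2 of 6 cultures.

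Markers of other cell types were compared as sums. Of 9 2-cell-like markers 0 passed the filter on low counts, and the 8 fibroblast markers together gave at most 41.3 CPM and the 12 primitive endoderm and mesendoderm markers at most 46.2 CPM in any sum of high-G2/M cells. Trophectoderm markers together gave 37.0 to 90.5 CPM in high-G2/M cells and 49.5 to 363 CPM in other cells. In control replicate 1 their summed level was 1070 CPM in the lowest bin of the marker sum and 90.5 CPM in the highest. Of the 8, 5 passed the filter on low counts, with median log2 fold changes of −1.23 in control and −0.58 after auxin, and 2 were lower in all 6 cultures, though 0 passed the threshold. Their part in the results was not tested. Gata2, expressed in trophoblast, was among the 10 lower genes. It had 10 UMIs in the 292 high-G2/M cells and 362 in the 875 others. Of the UMIs in other cells, 67.7% came from 10 cells, so that this call rests on few cells, and no fold is given.

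The 82 genes higher in the average include 44 of the fixed lists and 38 in no list. The 38 include Pimreg (1.23), Aspm, Fam83d and the exchange factor gene Arhgef39 (1.22). Among them were also Blnk, an adaptor of B cell signalling (0.99 ± 0.19, edgeR adjusted p = 0.0302), which lay at 34.7, 40.5 and 11.6 against 13.9, 26.5 and 8.00 CPM in control and at 39.4, 42.3 and 18.9 against 13.3, 24.1 and 9.05 CPM after auxin, and Ezh2 of Polycomb (0.28) and the telomere protein gene Terf1 (0.49). The 10 lower genes include Mcm4, Mcm6, Chaf1b, Ccne1, Hist1h2ap, Prdx6, Gata2, Aatf (−0.56) and Rhox5 (−0.87). Rhox5 had UMIs in 59 of 292 high-G2/M cells and 144 of 875 other cells, and 10 cells held 43.6% of its 14021 UMIs in the latter. These genes were named after their values were seen.

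**Figure D5:**
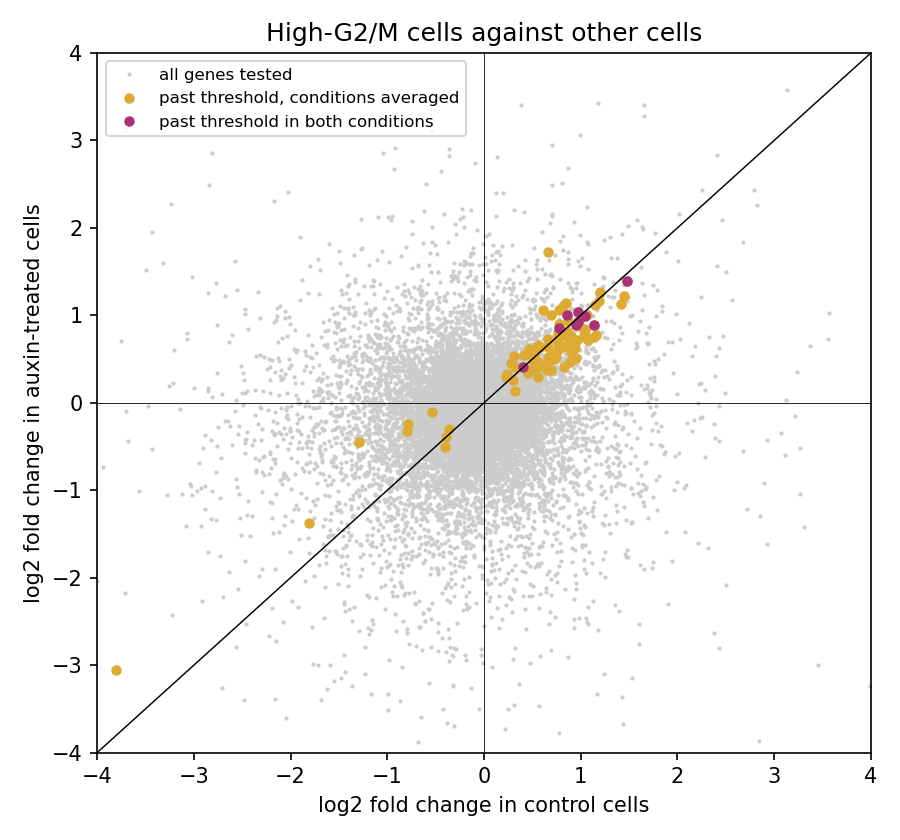
Log2 fold change of high-G2/M cells against other cells in control (x axis) and after auxin (y axis) for all 17256 genes tested (grey, with values beyond 4 outside the frame), the 92 past the threshold in the average (yellow) and the 9 past it in both conditions (purple), with the line of equality. The 9 purple genes lie near the line, between 0.41 and 1.48 in control and between 0.41 and 1.40 after auxin.

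The promoters of the higher genes shared sequence elements that the choice of cells did not use. A RefSeq promoter, from 250 bases before to 50 after the start, was at hand for 11735 of the 17256 genes tested and for 63 of the 82 genes higher in the average. A CHR element (TTTGAA or TTCGAA, either strand) was in 38 of these 63 (60.3%), against 16.8% of all 11735, and a CCAAT box in 50 (79.4%) against 42.9%. Both together were in 35 (55.6%) against 7.005%. With the window shortened to 150 bases before the start, the CHR shares were 55.6% and 10.1%. Of the 9 genes past the threshold in both conditions, 5 had a promoter at hand, 3 of them with a CHR and 4 with a CCAAT box.

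Of 6 lower genes with a promoter, 0 held a CHR, 3 a CCAAT box and 1 an E2F site (TTTCCCGC or TTTGGCGC, either strand). Among all replication genes, whether or not they passed, a CHR was in 6 of 35 promoters (17.1%) and an E2F site in 13 (37.1%), against 3.20% of all promoters. In the 5 mitotic lists a CHR was in 47 of 68 promoters (69.1%) and an E2F site in 6 (8.82%). In the 37 promoters of mitotic genes that did not pass, the CHR share was 62.2%. A CCAAT box was as frequent in replication genes (65.7%) as in the mitotic lists (66.2%). Of the 38 higher genes in no list, 27 had a promoter, and 13 of these held a CHR (48.1%). Among the 8 marker genes, 5 of 7 promoters held a CHR and 7 of 7 a CCAAT box. In the stretches printed above, the CHR elements begin 71 and 15 bases before the start of Cdk1, 130 and 14 before that of Ccnf and 29 before that of Ube2c. A match is a description of letters and not a measured site.

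Whether loss of cohesin changes what sets high-G2/M cells apart was asked by the difference between the auxin and the control comparison. No gene passed (0 of 17256 by edgeR and 0 by DESeq2), and 419 had an unadjusted p under 0.05 in edgeR, 2.43% of those tested and so fewer than the 5% that this threshold lets through without any difference. Without replicate 2, 2 genes passed, and with no filter on low counts 12 of 38853 did. The number of cultures limits this comparison, and an absence of calls does not show that the profiles were the same.

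Within the high-G2/M cells, auxin-treated and control sums were compared directly. Of 13141 genes tested, 0 passed in edgeR without a block (64 at an unadjusted p under 0.05, 0.487% of those tested) and 0 in DESeq2. DESeq2 with the replicate as a block, an alternative chosen after seeing the data, passed 18 genes, 4 higher and 14 lower after auxin. The replicate numbers pair the sums, and with the replicate as a block 590 genes had an unadjusted p under 0.05 in edgeR (4.49%). With this block 1 gene passed (0.00761%), Gm34623 (chr8:60195802-60280346), a gene model without an assigned function. It was at 0 in both conditions of replicate 1 and fell from 735 to 64.6 CPM in replicate 2 and from 269 to 49.4 CPM in replicate 3 (log2 fold change −3.03 ± 0.26, edgeR adjusted p = 0.00598), so that the call rests on 2 replicates. With the block and without replicate 1, 2 or 3, a choice made after seeing the data, 33, 19 and 2 genes passed. Klf5, a pluripotency factor, lay at 398, 83.7 and 275 CPM in control and at 194, 26.3 and 129 CPM after auxin (−1.26 ± 0.16, adjusted p = 0.0593), and Elf3, an epithelial factor, at 236, 19.9 and 183 against 109, 8.95 and 61.7 CPM (−1.27 ± 0.17, adjusted p = 0.0691). Both were lower in each replicate and missed the threshold. In the blocked fit Cdk1 had a log2 fold change of 0.15 ± 0.12 and Nusap1 of 0.01 ± 0.12, and neither passed.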

How the data were processed

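Smart-SCRB libraries were made from RAD21-AID mouse ES cells sorted singly into 96-well plates, in 3 replicates with and without auxin. The deposited tables hold raw UMI counts of each gene in each well, which the authors made from reads aligned to mm10. The counting tool and its use of strand are not given in the sources used here. The authors also deposited the detected genes and summed count per well and the percent of counts from ERCC spike-ins. The first 2 equalled values recomputed from the counts in 1536 of 1536 wells.

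The filter on wells, over 2600 detected genes, is that of the study. No doublet caller was run, and the UMI counts of the chosen cells are given in the text. The members, gene lists and tests were chosen with earlier results of these data known. Counts of 52636 genes, without 92 ERCC transcripts and 11 transgene sequences, were summed over high-G2/M and other cells of each culture. The 12 sums were tested in 1 fit of edgeR 4.0.16 (quasi-likelihood, TMM scaling, filterByExpr, Benjamini-Hochberg adjustment, threshold 0.05) in R 4.3.3, with culture as a block and a term for chosen cells in each condition. CPM of single genes in sums are TMM-scaled, those of the 8 markers, summed lists, bins and single cells are not. Log2 differences per culture used a prior count of 2. The conditions within high-G2/M cells were compared over 6 sums. There the replicate numbers were taken to pair the sums, since the deviations of same-numbered control and auxin sums from their group means correlated with 0.797, 0.730 and 0.508, and the fit with the replicate block is printed beside the unblocked one. The labels do not say how separately the cultures were grown, so p-values measure only the spread between these samples.

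Genes were named as the 15 largest and 10 most negative changes past the threshold in both conditions and alike in all 6 cultures, the 2 and 2 extremes of each list, the 5 and 5 extremes of the condition differences past the threshold, and 15 genes fixed by name. Gene models without an assigned name were to be passed over, and Gm34623 is named because it was the only one past the threshold. Some genes past the threshold are not reported here. All other named genes were chosen after their values were seen. Single values were compared by two-sided exact sign-flip permutation tests over cultures. Phases came from cyclone (scran 1.30.0). Gene positions are from GENCODE M21, which held 99.6% of gene identifiers, and promoters from RefSeq (GRCm38.p6), matched by Ensembl identifier or symbol. The summed counts set the precision, from 1620743 to 37372577 UMIs per sum. The procedure was tested on simulated sums. Alternatives were DESeq2 1.42.0, limma 3.58.1 on mean CPM per cell, other scaling, filters, blocks, depth (cells thinned to 20000 UMIs with seed 1), choice within plates, the top 10% and each replicate left out.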

Additional observations from a re-analysis of the deposited data

Results flagged for a closer look

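In 3 of 105 groups of 6 cultures compared, 1 culture stood apart from the other 5, and chance alone sets apart about 1 in 20 such groups. Hjurp, which encodes the chaperone that loads CENP-A, had a log2 difference between high-G2/M and other cells of 1.441 in control replicate 1, against a median of 0.63 over the 6 cultures. Pou5f1 had −1.226 in auxin replicate 3, where it lay at 5.095 CPM in the chosen and 12.13 CPM in other cells, against a median of −0.12. For the G2/M transcription regulators, the median log2 difference over the list was −0.53935 in control replicate 3, against a median of −0.001036 over cultures. What lies behind these values was not tested.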

How the results depend on the processing

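The 26, 12 and 92 genes past the threshold in control, after auxin and in the average became 128, 85 and 213 with no filter on low counts, 98, 79 and 205 with DESeq2, and 76, 62 and 155 with cells thinned to 20000 UMIs. They became 7, 6 and 53 with the top 10% of cells, and 0, 0 and 39 with limma on mean CPM per cell. With no replicate block, that is without the culture as a block, 0, 0 and 0 passed, since the spread between cultures then enters the error. With both left-out plates of replicate 3 placed as annotated, 36, 7 and 118 passed. Leaving out 1 replicate gave 6 to 92 genes in control, 3 to 54 after auxin and 35 to 137 in the average, the lowest each time without replicate 1 and the highest without replicate 2. The difference between conditions gave 12 genes with no filter and 0 to 2 with a replicate left out. Within high-G2/M cells the replicate block gave 1 gene by edgeR and 18 by DESeq2, and with the block 33, 19 and 2 passed without replicate 1, 2 and 3, the DESeq2 block and these left-out replicates being chosen after seeing the data.

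The mean log2 UMI ratio of 0.16 lost its call at 0.15 over cells with more than 4000 genes and at 0.0019 in the top 10%, and 0.11 to 0.24 with a replicate left out. The difference in G2/M share was 53.4 to 65.6 points with a replicate left out, and the log2 folds of the markers not used for choosing were 0.80 to 1.39 and 0.69 to 1.29. With 4 cultures left, 0.125 is the smallest p an exact permutation test allows, so these give no call. Rad21 turned to 0.038 with no replicate block and ranged from −0.22 to 0.23 with a replicate left out, none past the threshold. Of the other values for single genes, 2073 kept direction and call, 223 gained and 334 lost the call. The cause of these changes was not tested.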

Other observations

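Krt8 and Krt18, keratin genes of simple epithelia and trophectoderm, were, like Gata2, spread unevenly over cells. Krt18 had 547 UMIs in the 292 high-G2/M cells and 4755 in the 875 other cells, of which 67.8% came from 10 cells. Krt8 had 524 and 2542 UMIs, with 51.4% of the latter in 10 cells. Prdx6, by contrast, had only 7.35% of its UMIs in other cells from 10 cells. These genes were chosen after their values were seen, and no test was run.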
